A study of Drosophila melanogaster with 6 samples.

Results

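The 39 proteasome genes described here are the genes on the array whose symbols start with Prosalpha, Prosbeta, Rpn or Rpt followed by a digit, out of 10844 genes that the platform's annotation pairs with a probe set of 1 gene. They were selected by name, without a threshold on any measured value, but with earlier results of these data known. Of these, 26 encode the ordinary subunits of the complex and 13 encode variant copies of subunits, marked by an R or a T in the symbol. Each gene was read from 1 probe set, a group of short probes for 1 transcript, and for the 2 genes with more than 1 probe set (Prosalpha7 and Prosbeta6) the one with the highest mean over the 6 arrays was used. The 9 other genes of the current fly annotation with such symbols (Prosalpha1, Prosalpha1R, Prosbeta1, Prosbeta5R2, Rpn9, Rpn10, Rpt1, Rpt6 and Rpt6R) are not among them and were not analysed here.

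The data are 6 one-colour arrays of total RNA from sorted Drosophila melanogaster cells. All cells came from preparations carrying the red fluorescent protein dsRed1 fused directly to a 2.1 kb promoter fragment of Gad1, the gene of the enzyme that makes the transmitter GABA, and were separated by fluorescence. The EC_pos group is 4 arrays, a to d, of the fluorescent cells of an embryonic cell culture. For larval brain with its ventral nerve cord there is 1 array of fluorescent cells, LB_pos, and 1 of non-fluorescent cells, LB_neg. Strain, age and time in culture are not stated in the labels, nor is the number of cultures behind the 4 EC_pos arrays. The p-values therefore reflect array-to-array spread alone, which may be technical. Non-fluorescent culture cells were not among the samples, and embryonic culture and larval tissue differ in stage and in handling together, which cannot be told apart.

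The proteasome is the large protease that degrades proteins tagged with ubiquitin in the cytoplasm and the nucleus. Its barrel-shaped 20S core is built of outer rings of alpha subunits, which gate the entrance, and inner rings of beta subunits, some of which carry the cutting sites. A 19S cap sits on the core and consists of a base, whose Rpt ATPases unfold the substrate, and a lid, which removes its ubiquitin. In neurons the complex is known for its part in turnover of synaptic proteins and in axon and dendrite pruning, and dividing cells need it to destroy cyclins. The variant copies are known in Drosophila mainly as genes of the male germ line.

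Array a of the EC_pos group stood apart. Its control probe sets for 3 abundant transcripts gave ratios of the 3' to the 5' end between 148 and 866, against 8.90 to 120 on the other 5 arrays. The geometric mean of 9 hybridization controls was 3739 on array a and 1270 to 1562 on EC_pos arrays b to d. On LB_pos it was 7382 and on LB_neg 2527, and its part in the differences between arrays was not tested. The median intensity per array ranged from 181.5 to 229.4, and the small number of arrays limits the precision. Gad1 was dim on every array, from 22.0 to 54.8, so the gene behind the reporter does not check the sort, and with the GABA transporter gene VGAT it summed to 448 to 989 in EC_pos, 792.5 on LB_pos and 762 on LB_neg. Summed over the 5 neuron marker genes on the array (elav, nSyb, brp, fne and futsch), the intensity was 716 on array a, 1995 to 3418 on EC_pos arrays b to d, 6651 on LB_pos and 8438 on LB_neg. Of these, brp, a protein of active zones, was dim on all arrays, at 158 or less. The higher sum on LB_neg was carried by elav, at 1541 on LB_pos and 4940 on LB_neg, and fne went the same way. In contrast, nSyb, futsch and brp were higher on LB_pos, with futsch at 2511 and 1012. In such bulk samples, fewer cells of a type and less RNA per cell cannot be told apart. Results on EC_pos are given with and without array a.

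The 26 ordinary subunit genes were bright on nearly every array and the 13 variant copies were not. All 26 lay above 197.35, the median of all intensities, on at least 1 array, and their intensities ranged from 59.4 to 12065. The value of 59.4, for Prosalpha4 on array a, was the only one of an ordinary subunit below 100 on any array. The variant copies ranged from 3.9 to 261. Only 2 of them, Rpt3R and Rpt4R, passed that median on any array, and Prosalpha4T1, Prosbeta2R1, Prosbeta4R2 and Rpn12R stayed below 53.6, the 25th percentile, on all 6. These ranges do not rank the genes by transcript level, since the brightness of a probe set also depends on its probes.

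**Figure D1:**
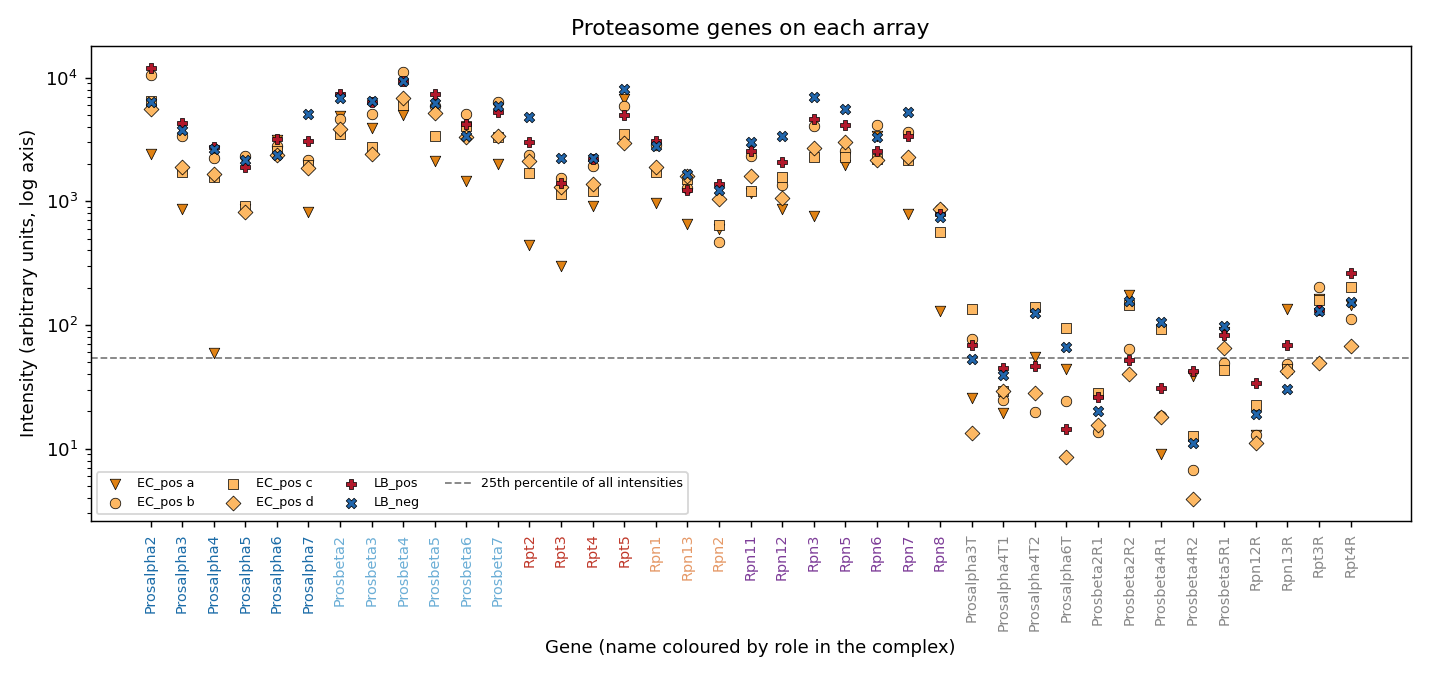
Intensity of each of the 39 proteasome genes (log axis) on the 6 arrays, with gene names coloured by role and a dashed line at 53.6, the 25th percentile of all intensities. The 26 ordinary subunits lie between 59.4 and 12065, the 13 variant copies between 3.9 and 261, and EC_pos array a is the lowest array for many of the ordinary subunits.

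In the outer ring of the core, LB_pos was the brightest array for 4 of 6 alpha subunits, against 2146 of all 9635 tested probe sets. Prosalpha2 was at 2419, 10424, 6437 and 5527 on EC_pos arrays a to d, at 12065 on LB_pos and at 6302 on LB_neg, so that the non-fluorescent larval array lay inside the range of the culture. Prosalpha3, a subunit of the gate, was at 863, 3358, 1728 and 1882 in EC_pos, 4296 on LB_pos and 3768 on LB_neg, with both larval arrays above all 4 culture arrays. Prosalpha4 was at 59.4, 2255, 1581 and 1658 in EC_pos, 2770 on LB_pos and 2669 on LB_neg, and here too the larval arrays did not overlap the culture. The largest spread within EC_pos belonged to this gene, whose array a reached 0.0324 of the mean of b to d. Prosalpha7, read from the brighter of its probe sets, was at 826, 2143, 1967 and 1855 in EC_pos, 3082 on LB_pos and 5123 on LB_neg. Both larval arrays lay above the culture again, and LB_neg was the higher of the pair. The second Prosalpha7 probe set was dim, at 7.2 to 54.6 in EC_pos, 180 on LB_pos and 112 on LB_neg, with the larval pair in the opposite order. Prosalpha6 was the steadiest of all 26, at 3127, 2809, 2570 and 2375 in EC_pos, 3161 on LB_pos and 2386 on LB_neg, so that LB_neg lay inside the range of the culture and LB_pos just above it. Prosalpha5 was set apart by array b, at 858, 2332, 922 and 814 in EC_pos, 1883 on LB_pos and 2157 on LB_neg.

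In the inner ring, the beta subunits were close to each other on the 2 larval arrays. Prosbeta2, which carries the trypsin-like cutting site, was at 4872, 4663, 3482 and 3813 in EC_pos, 7386 on LB_pos and 6844 on LB_neg. Its larval values stood above all 4 culture arrays, and array a was not low for it. Prosbeta5, which carries the chymotrypsin-like site, was at 2134, 5886, 3375 and 5170 in EC_pos, 7357 on LB_pos and 6269 on LB_neg, without overlap of larval and culture arrays. Prosbeta3, a structural subunit, was at 3883, 5096, 2760 and 2419 in EC_pos, 6304 on LB_pos and 6507 on LB_neg, also without overlap. For Prosbeta4, Prosbeta6 and Prosbeta7, further structural subunits, array b was the brightest of all 6, at 11139, 5119 and 6396, and larval and culture arrays overlapped. The second Prosbeta6 probe set was dim, at 12.3 to 129 in EC_pos, 214 on LB_pos and 88.7 on LB_neg.

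The 4 ATPases of the base were each brightest on LB_neg, against 2031 of all 9635 tested probe sets. Rpt2, whose tail opens the core's gate in yeast, was at 442, 2379, 1685 and 2121 in EC_pos, 3014 on LB_pos and 4764 on LB_neg, with both larval arrays above the culture. Rpt3 was at 302, 1545, 1145 and 1301 in EC_pos, 1409 on LB_pos and 2244 on LB_neg, so only LB_neg stood above the culture. Rpt4 was at 909, 1921, 1222 and 1390 in EC_pos, 2193 on LB_pos and 2228 on LB_neg, a narrow gap above array b. Rpt5 was the ordinary subunit with the largest excess on array a, at 6741, 5899, 3506 and 2960 in EC_pos, 4972 on LB_pos and 8143 on LB_neg. Among the other base subunits, the scaffold Rpn2 was at 593, 469, 640 and 1034 in EC_pos, 1367 on LB_pos and 1232 on LB_neg, without overlap. The scaffold Rpn1, which binds shuttle proteins carrying ubiquitinated cargo, and the ubiquitin receptor Rpn13 overlapped between culture and larva. Rpn13 was at 652, 1287, 1501 and 1586 in EC_pos, 1224 on LB_pos and 1666 on LB_neg.

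In the lid, 5 of 7 subunits were brightest on LB_neg, against the same 2031 of 9635 tested probe sets. Rpn3, a scaffold subunit, was at 759, 4091, 2280 and 2716 in EC_pos, 4591 on LB_pos and 6996 on LB_neg. Rpn5, another scaffold subunit, was at 1972, 2538, 2263 and 3016 in EC_pos, 4104 on LB_pos and 5608 on LB_neg. Rpn12, which joins the lid last in yeast, was at 873, 1361, 1582 and 1058 in EC_pos, 2085 on LB_pos and 3355 on LB_neg. All 3 had both larval arrays above the 4 culture arrays, as did Rpn11, the enzyme that cuts ubiquitin off the substrate, at 1168 to 2326 in EC_pos, 2561 on LB_pos and 3007 on LB_neg. Rpn7 was at 792, 3598, 2170 and 2293 in EC_pos, 3342 on LB_pos and 5252 on LB_neg, and here LB_pos lay below array b. Rpn6, which ties the lid to the core, was at 3353, 4106, 2195 and 2160 in EC_pos, 2569 on LB_pos and 3324 on LB_neg, inside the range of the culture on both larval arrays. Rpn8, the partner of Rpn11, was at 129, 864, 569.6 and 865 in EC_pos, 794 on LB_pos and 739 on LB_neg, with array a far below the rest.

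The variant copies did not all rank the arrays alike. Over the 13, the geometric mean intensity was 45.7, 33.4, 64.5 and 22.7 on EC_pos arrays a to d. It was 52.6 on LB_pos and 57.3 on LB_neg. Rpt4R, a copy of the ATPase Rpt4, was at 145, 111, 201 and 67.7 in EC_pos, 261 on LB_pos and 153 on LB_neg. Rpt3R, a copy of Rpt3, was at 161, 201, 159 and 48.8 in EC_pos, 131 on LB_pos and 130 on LB_neg. Prosbeta2R2 was at 173, 63.7, 144 and 40.2 in EC_pos, 51.7 on LB_pos and 157 on LB_neg, and Rpn13R was at 134, 48.3, 43.9 and 42.2 in EC_pos, 68.5 on LB_pos and 30.5 on LB_neg. These values overlapped between culture and larva. Of 3 germ line markers on the array (vas, aub and bam), the summed intensity was 994 on array a, 150 to 253 on b to d, 596 on LB_pos and 218 on LB_neg, with aub alone at 822 on array a, and their part in the variant copies' values was not tested.

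Within the culture, array a was dimmer than its fellows for most ordinary subunits. It was the lowest of the 4 EC_pos arrays for 19 of 26, or 73.1%, against 40.3% of all 9635 tested probe sets, and for the same 19 the lowest of all 6, against 27.6%. On the scale of log2(intensity + 53.6), used for all differences here, the median of array a minus the mean of b to d was -1.05 over the 26 subunits and -0.05 over all tested probe sets. A deficit of at least 1 log2 unit on array a was found for 14 of the 26, against 22% of all tested probe sets, and an excess of that size for 0, against 19.1%. The deficit was -4.04 for Prosalpha4, -2.14 for Rpn8, -2.08 for Rpt2, -1.95 for Rpt3 and -1.88 for Rpn3. Rpt5, Rpn6, Prosbeta2, Prosalpha6 and Prosbeta3 went the other way, by 0.77, 0.31, 0.30, 0.27 and 0.26. The high 3' to 5' ratios of array a move with these values, as do 5 hemocyte markers, whose summed intensity was 2920 on array a and 502 to 558 on b to d. The part of either was not tested. The subunits of other large complexes from the fixed lists were also dim there, with a median of -2.40 over 16 genes of eIF3, a translation initiation factor, and -1.45 over 8 genes of the chaperonin CCT, whereas the COP9 signalosome, a relative of the lid, was at 0.14 over 8 genes.

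**Figure D2:**
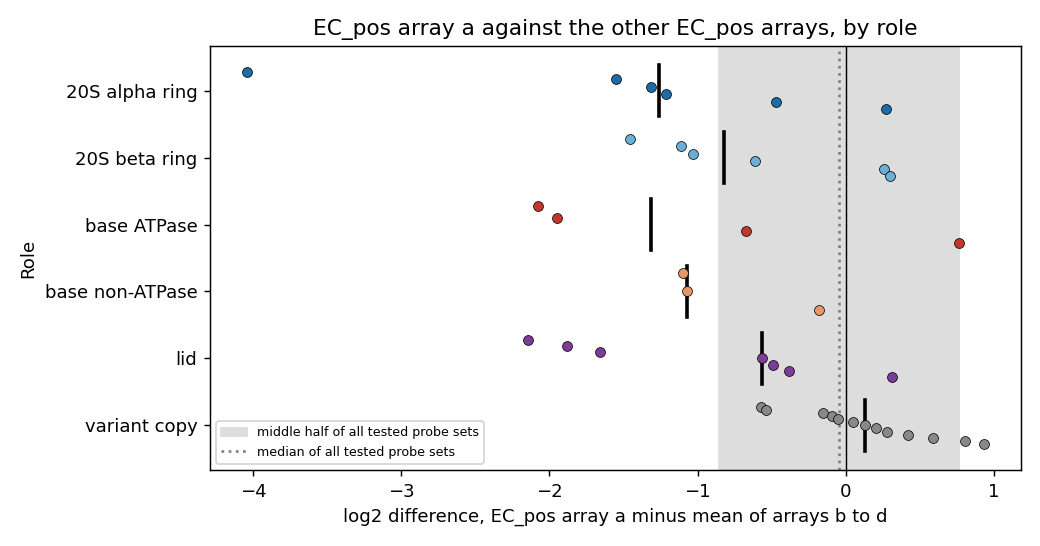
Difference between EC_pos array a and the mean of arrays b to d (log2 units) for each proteasome gene, by role, with role medians as black bars. Role medians of the ordinary subunits lie between -1.31 for the base ATPases and -0.56 for the lid, the variant copies are centred at 0.13, and the grey band spans the interquartile range of all tested probe sets, from -0.86 to 0.77.

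Array b was the brightest EC_pos array for 18 of 26 ordinary subunits, against 19.4% of all tested probe sets. Among the core subunits this held for 10 of 12, with Prosbeta7 at 6396 on array b against 3280 and 3397 on c and d, and Prosalpha3 at 3358 against 1728 and 1882. The exceptions in the core were Prosalpha6 and Prosbeta2. Without array a, the median SD of the 26 subunits over b to d was 0.39 log2 units (n = 3), compared with 0.33 over all tested probe sets. With it the values were 0.62 and 0.55 (n = 4). The subunits with the smallest SD over b to d were Prosalpha7 (0.10), Prosalpha6 (0.12) and Rpn13 (0.15). Prosalpha5 had the largest, at 0.80, with array b the highest.

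The fluorescent culture cells were then compared with the larval arrays, to ask whether proteasome genes differ between embryonic culture and larval nervous system. All 26 ordinary subunits were dimmer in EC_pos than in the larval mean, the average of LB_pos and LB_neg, but none passed the test with all 4 culture arrays. The median log2 difference of EC_pos minus the larval mean was -0.82 over the 26 subunits, between -1.59 for Prosalpha4 and -0.02 for Prosalpha6. Without array a Prosalpha4 was at -0.57, and the lowest was Prosalpha7 at -0.98. Over all tested probe sets the median was -0.19, and 5681 of 9635 were below 0. By role the medians were -0.999 for the alpha ring, -0.72 for the beta ring, -0.82 for the base ATPases, -0.74 for the other base subunits and -0.97 for the lid. The variant copies had a median of -0.21. Both larval arrays lay above all 4 culture arrays for 13 of the 26, against 21.4% of tested probe sets, and for none of the 26 did both lie below, against 14.1%. With array a set aside, the count above arrays b to d was again 13, against 31.6%, and that below was 0, against 21.4%.

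In limma's test, 0 of 28 tested proteasome genes passed an adjusted p under 0.05 with all arrays, where 3.3% of all tested probe sets passed, and 3 of the 28 had an unadjusted p under 0.05 with a lower level in EC_pos, against 11.6%. The lowest adjusted p was that of Rpn12, at -1.12 ± 0.42 (SE, limma adjusted p = 0.186), followed by Prosalpha7 at -1.29 ± 0.51 (limma adjusted p = 0.211). Without array a, 6 of the 26 ordinary subunits passed and all 6 were lower in EC_pos, a share of 23.1% against 14.4% of tested probe sets that passed in that direction. At an unadjusted p under 0.05 there were 11, against 23.1%. The 6 were Prosalpha7 at -0.98 ± 0.23 (limma adjusted p = 0.0169), Rpn5 at -0.88 ± 0.24 (0.0293), Rpn12 at -0.98 ± 0.27 (0.0299), Prosbeta2 at -0.84 ± 0.24 (0.0311), Rpt2 at -0.88 ± 0.25 (0.035) and Rpn3 at -0.94 ± 0.29 (0.0448). All 3 culture arrays b to d lay below both larval arrays for each of them, which adds no separate evidence, since they were called on these same arrays. Another 2, Prosbeta6 and Rpn13, were at 0.10 and 0.02 without array a. The second, dim Prosbeta6 probe set was at -1.11 with all arrays. The median over the 26 subunits became -0.62, and that over all tested probe sets -0.23. With array a left out and all arrays brought to 1 common median, 2 of the 6 passed, Prosalpha7 and Rpn12, and after quantile normalization 8 passed, the 6 together with Prosalpha3 and Prosbeta3. In the fits, LB_pos and LB_neg take their variance from the EC_pos arrays.

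**Figure D3:**
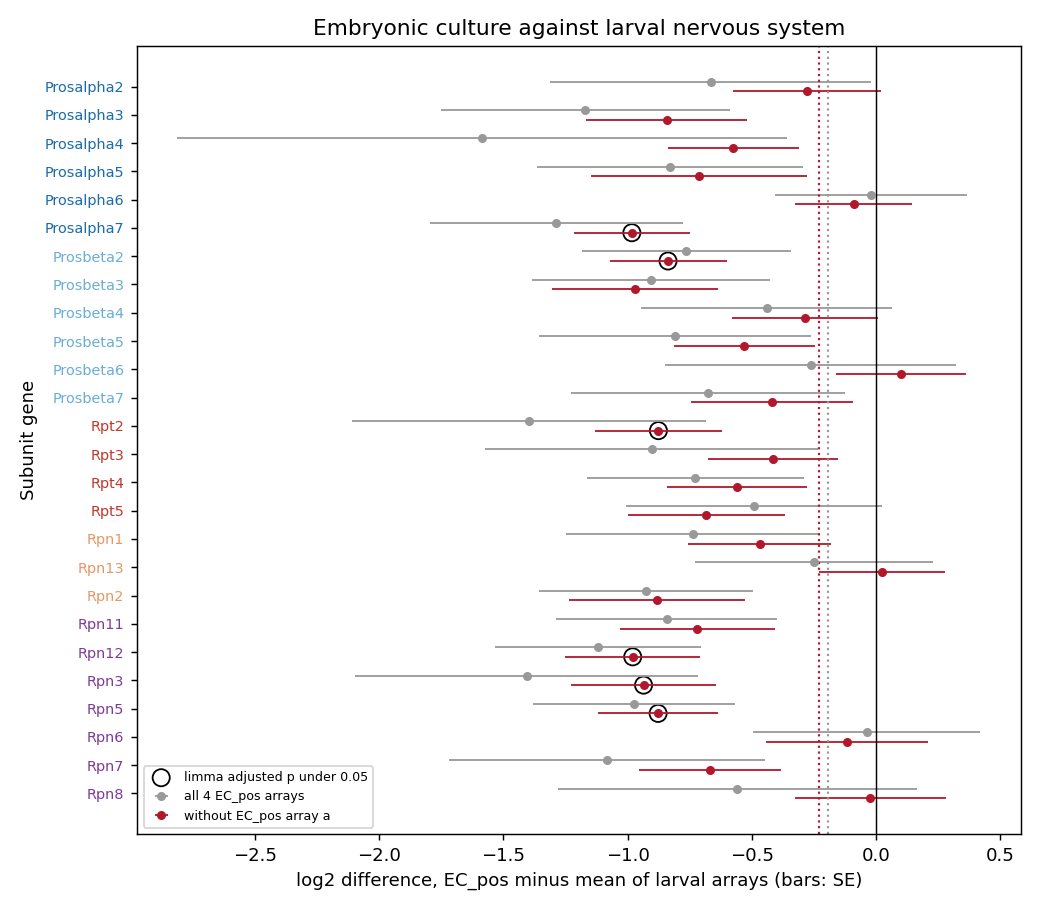
Log2 difference of EC_pos minus the larval mean for the 26 ordinary subunits, with bars of 1 SE from limma, for all 4 EC_pos arrays (grey, 4 against 2 arrays) and without array a (red, 3 against 2). Black circles mark the 6 genes with an adjusted p under 0.05 without array a, and dotted lines the medians of all tested probe sets, -0.19 and -0.23.

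Each larval array was also taken alone, with the culture arrays shared by both comparisons. Against LB_pos the median over the 26 subunits was -0.76, or -0.58 without array a, with 25 of 26 below 0 and Rpn6 at 0.14. The largest differences were those of Prosalpha4 (-1.61), Prosalpha3 (-1.26) and Prosalpha2 (-1.13), but without array a these were -0.60, -0.94 and -0.74, and the largest were those of Rpn2 (-0.95), Prosbeta3 (-0.95) and Prosalpha3. No proteasome gene passed in limma, where 0.0311% of tested probe sets passed, and 0 had an unadjusted p under 0.05 with a lower level in EC_pos, against 7.09%. Without array a 0 of 28 passed, where 5.49% of tested probe sets passed as lower, and 1 had an unadjusted p under 0.05, against 18.5%. That gene was Prosbeta2, at -0.89 ± 0.30 (limma adjusted p = 0.0828).

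Against LB_neg the median was -0.85, or -0.74 without array a, with Prosalpha6 at 0.18 as the sole value above 0 when all arrays were used. The largest differences were those of the ATPase Rpt2 (-1.72), the lid subunit Rpn3 (-1.71) and Prosalpha7 (-1.65). With all arrays 0 of 28 passed in limma, where 0.54% of tested probe sets passed, and 2 had an unadjusted p under 0.05, against 8.47% as lower. Without array a 5 passed, all lower in EC_pos, where 10.6% of tested probe sets passed in that direction, and 9 had an unadjusted p under 0.05, against 18.6%. The 5 were Prosalpha7 at -1.34 ± 0.30 (limma adjusted p = 0.0143), Rpn12 at -1.32 ± 0.34 (0.0278), Rpt2 at -1.20 ± 0.32 (0.0306), Rpn5 at -1.10 ± 0.31 (0.0349) and Rpn3 at -1.24 ± 0.37 (0.0444). Of the 5, 4 belong to the cap. Muscle markers moved with the culture, since the summed intensity of the 2 on the array (Tm2 and up) was 223 to 2425 in EC_pos, 117 on LB_pos and 45.1 on LB_neg. Of 3 fat body markers, whose sums were 3784 to 4438 in EC_pos, 723 on LB_pos and 617 on LB_neg, apolpp alone moved, at 3266 to 3921 in EC_pos, 230.5 on LB_pos and 188 on LB_neg, while Lsp2 and Fbp1 did not pass. The part of these genes was not tested. The summed neuron markers given above were higher on both larval arrays than on every culture array. Among them futsch alone overlapped, at 1197 on array b and 1012 on LB_neg. The sums of 5 neuroblast markers were likewise higher on both larval arrays, at 1034 to 1699 in EC_pos, 2922 on LB_pos and 7202 on LB_neg. With all arrays, mira and wor passed as lower in EC_pos against the larval mean (limma adjusted p = 0.0467 and 0.0425), but not against LB_neg. Of the others, ase passed only against LB_neg without array a, and insc was higher in EC_pos than in the larval mean, by 0.62. The part of both lists was not tested either.

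The 2 larval fractions were compared to see whether proteasome genes differ between reporter-positive and reporter-negative cells of that tissue. Each fraction was 1 array, so there was no test. Core subunits were centred near 0, while most ATPases and lid subunits were dimmer on LB_pos than on LB_neg. The median log2 difference of LB_pos minus LB_neg was 0.08 over the 12 core subunits and -0.44 over the 14 cap subunits, against 0.11 over all tested probe sets. Scaling moved both values together. With a common median the core was at -0.25, the cap at -0.77 and all probe sets at -0.18, so the core changed sign, and after quantile normalization they were at 0.22, -0.34 and -0.02. At the deposited scaling, 0 of the 28 tested proteasome genes differed by 1 log2 unit or more. Of all tested probe sets, 11.8% were higher and 7.38% lower on LB_pos by that much. The 11 untested variant copies also stayed within 1 log2 unit, but the constant added to each intensity understates differences of dim genes. Prosbeta2R2, at 51.7 on LB_pos and 156.9 on LB_neg, had a difference of -0.999. Of the 13 variant copies, 5 were lower on LB_pos.

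Of the 14 cap subunits 11 were dimmer on LB_pos, and of the 12 core subunits 4, where 44% of all tested probe sets were. With a common median 24 of all 26 were dimmer, but the median of all tested probe sets moved too, from 0.11 to -0.18. The share of all probe sets dimmer under that setting is not given here. At the deposited scaling, a difference of -0.5 or lower was found for 6 cap subunits, namely Rpt5 (-0.71), Rpn12 (-0.67), Rpt2 (-0.65), Rpt3 (-0.65), Rpn7 (-0.64) and Rpn3 (-0.60), and for 1 core subunit, Prosalpha7 (-0.72), against 20.7% of tested probe sets. With the mean over its probe sets Prosalpha7 was at -0.11. On the probe sets used, Prosalpha2 was the 1 ordinary subunit brighter on LB_pos by at least 0.5, at 0.93. Prosalpha6 (0.40) and Prosbeta6 (0.32) followed it, but with a common median they were at 0.066 and -0.02. The second, dim Prosbeta6 probe set was at 0.91 at the deposited scaling. By role, the medians were -0.65 for the ATPases, -0.45 for the lid, 0.12 for the other base subunits, 0.12 for the alpha ring and 0.06 for the beta ring. A lower level on LB_pos was not particular to the cap. The median was -0.70 over 8 COP9 signalosome genes, -0.43 over 8 of CCT and -0.27 over 16 of eIF3. It was -0.47 over the list of 12 proteasome regulators and shuttles and -0.33 over 6 genes of the p97 machinery. For 14 cullin ligase genes it was -0.20, for 6 ubiquitin-conjugating enzymes -0.08, and for 6 ubiquitin and activating enzyme genes 0.75. Neuroblast markers moved with the cap, as the summed intensity of 5 (dpn, mira, ase, wor and insc) was 2922 on LB_pos and 7202 on LB_neg, with 4 of the 5 lower on LB_pos and dpn at 0.25. The sum of 6 glial markers was 2726 and 6313, a gap carried by gcm, at 499.9 and 3914, while loco (0.45) and moody (0.07) were higher on LB_pos. Their part was not tested, nor was that of the hybridization controls, whose geometric mean was 7382 on LB_pos and 2527 on LB_neg.

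Other genes of ubiquitin-dependent degradation were read from lists of known members. In the fit without array a, to which their counts refer, 14.4% of all tested probe sets passed as lower in EC_pos and 14.4% as higher. Among 12 regulators and shuttles of the proteasome, 1 passed as lower against the larval mean, a share of 8.33% that lies below the 14.4% of all probe sets. It was the small lid subunit Sem1, at 1237, 3379, 1681 and 1542 in EC_pos, 6303 on LB_pos and 3800 on LB_neg (-1.22 ± 0.36, limma adjusted p = 0.0345). The proteasome's transcription factor cnc, the fly relative of Nrf1, was at 308 to 379 in EC_pos, 318 on LB_pos and 555 on LB_neg, with a difference of -0.29 (limma adjusted p = 0.494 without array a). Its partner maf-S was at 1218 to 2058 in EC_pos, 3102 on LB_pos and 2572 on LB_neg (-0.93, limma adjusted p = 0.0515). The maturation factor Pomp was at 464 to 1033 in EC_pos, 887 on LB_pos and 1248 on LB_neg, and the shuttle Rad23 at 2033 to 4057, 2835 and 3948, and neither passed. With all 4 culture arrays 0 genes of the pathway and complex lists passed in either direction.

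Upstream steps gave mixed counts without array a. Of 6 ubiquitin and activating enzyme genes, 2 passed as lower in EC_pos, the ubiquitin gene Ubi-p63E (-0.83, limma adjusted p = 0.0303) and the SUMO-activating subunit Uba2 (-1.40, 0.0191), and 1 as higher, RpL40 (0.68, 0.0347), which encodes ubiquitin fused to a ribosomal protein. Of 6 ubiquitin-conjugating enzymes 3 passed as lower, ben, Ubc2 and morgue, and of 14 cullin ligase genes, 11 of them tested, 3, Cul1, Roc1a and the ubiquitin-like modifier Nedd8. Of 6 genes of the p97 machinery, which pulls substrates out of complexes, 2 passed as lower, the cofactors Npl4 (-1.33, limma adjusted p = 0.00863) and Ufd1 (-1.54, 0.00608).

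Complexes built like the lid did not follow a single pattern. The COP9 signalosome, which takes Nedd8 off cullins, had 7 tested genes of 8 and all 7 passed as lower in EC_pos without array a, with a median of -1.20 over the 8. Its subunit CSN5, the relative of Rpn11, was at 1182, 1329, 1323 and 1233 in EC_pos, 2424 on LB_pos and 3699 on LB_neg (-1.18 ± 0.24, limma adjusted p = 0.0089). CSN7 was at 307 to 1014 in EC_pos, 1821 on LB_pos and 4415 on LB_neg (-2.12 ± 0.44, 0.00989). Of 16 eIF3 genes, 14 of them tested, 0 passed as lower and 1 as higher, eIF3c, and the median was 0.03. Of 8 genes of CCT, a complex unrelated to the lid, 0 passed as lower and 2 as higher, CCT3 and CCT6, and the median was 0.04. Differences between these lists and the proteasome subunits were not tested.

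**Figure D4:**
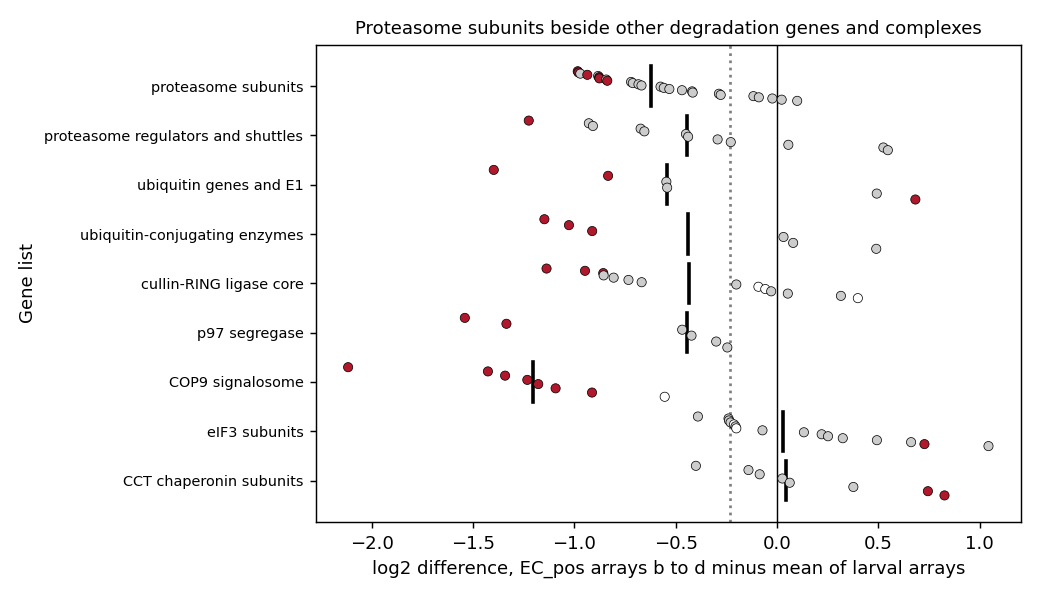
Log2 difference of EC_pos arrays b to d minus the larval mean for the 26 ordinary proteasome subunits and for each gene on the array of 8 other lists, red for a limma adjusted p under 0.05, grey for tested genes that did not pass and white for genes too dim to test. Black bars are medians, -0.62 for the proteasome subunits, -1.20 for the COP9 signalosome, 0.03 for eIF3 and 0.04 for CCT, and the dotted line is the median of all tested probe sets, -0.23.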

How the data were processed

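The values deposited by the authors are linear intensities, 1 for each probe set on each of the 6 arrays. The processing software is not given in the sources used here, and no coordinates were used. With 2% of values dropped at each end, every array averaged 500.1, so the deposited intensities were used without further scaling. Tests left aside 44 control probe sets and took the 9635 of 13966 probe sets that exceeded 197.35, the median of all values, on any array. Symbols came from the platform's annotation, of which 12443 probe sets name 1 gene and 12394 were updated through the current RefSeq annotation.

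Differences were computed as log2(intensity + 53.6), the offset being the 25th percentile, which understates differences of dim genes. A model of 3 group means was fitted in R 4.3.3 by limma 3.58.1 (eBayes with trend, Benjamini-Hochberg adjustment over all tested probe sets, calls under 0.05), with 3 residual degrees of freedom from EC_pos, or 2 without array a. The fit was run on simulated data, with every array drawn at the mean and spread of EC_pos arrays b to d and known changes put on LB_pos. That setting cannot show how the fit handles array a, or larval arrays whose spread differs from the culture's. The members and the 16 gene and marker lists were chosen with earlier results of these data known. Named were members called, the 3 largest differences in each direction per contrast, the largest and smallest SD within EC_pos, and members whose probe sets disagree. As exceptions, further subunits are given for their role, Pomp, Rad23, cnc, maf-S and CSN5 among them. Alternatives changed the offset, filter, scaling, trend, probe set rule and each EC_pos array.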

Additional observations from a re-analysis of the deposited data

Results flagged for a closer look

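Among the 39 proteasome genes, 6 had 1 of the 4 EC_pos arrays far from the other 3, past Dixon's critical value for 4 samples on the log2 scale, where chance gives about 1 in 20 groups. The share of all probe sets past that value is not given here, so the count is not read as particular to these genes. Array a lay at least 1 log2 unit below the mean of b to d for 22% of all tested probe sets, and above it for 19.1%. Array a was far below the others for Prosalpha4, at 59.4 against 1581 to 2255, and for Prosalpha7, at 825.8 against 1855 to 2143. It was far above them for Rpn13R, at 134 against 42.2 to 48.3. Array b was far above for Prosalpha5, at 2331.9 against 814 to 922. Array c was far above for Prosbeta2R1, at 28.4 against 13.5 to 15.5, and for Prosbeta4R1, at 92.2 against 9.1 to 18.4. Of these 6, the 3 variant copies were too dim to be tested. Array a had the highest 3' to 5' control ratios of all arrays, and their part in its values was not tested.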

How the results depend on the processing

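With all 4 EC_pos arrays, 0 proteasome genes passed against either larval array or their mean at any offset, filter, scaling, eBayes setting or probe set rule. Leaving out 1 EC_pos array in turn gave 0 to 6 calls against the larval mean and 0 to 5 against LB_neg, each highest count without array a, and 0 against LB_pos. Without array a, 2 alternatives were chosen after seeing the data. A common median gave 2 calls against the larval mean, 5 against LB_neg and 0 against LB_pos, and quantile normalization gave 8, 6 and 1. For LB_pos minus LB_neg, the members past 1 log2 unit numbered 5 with an offset at the 10th percentile, 6 with a common median and 4 with quantile normalization. The median of all tested probe sets under these settings was 0.12, -0.18 and -0.02. The share of all probe sets past 1 log2 unit is not given for them, so these counts are not read as a result about the members. Under the common median 24 of 26 subunits were lower on LB_pos, while the median of all tested probe sets moved from 0.11 to -0.18.

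Differences near 0 changed sign, none of them called. With 1 EC_pos array left out in turn, values against LB_neg ran from -0.51 to 0.19 for Prosalpha2 and from -0.33 to 0.26 for Prosbeta6. Against LB_pos they ran from -0.17 to 0.24 for Rpn13, -0.030 to 0.27 for Rpn6 and -0.33 to 0.061 for Rpt5. Against the larval mean they ran from -0.089 to 0.040 for Prosalpha6, -0.49 to 0.10 for Prosbeta6, -0.38 to 0.023 for Rpn13 and -0.21 to 0.091 for Rpn6. A common median gave 0.057 for Prosalpha6 and 0.039 for Rpn6 against the larval mean, and 0.20 for Rpn13 and 0.11 for Rpt5 against LB_pos, and quantile normalization gave -0.033 for Rpn6 against LB_pos. Without array a and with a common median, Prosalpha2 (0.10) and Prosbeta6 (0.17) against LB_neg, Rpn13 (0.47) against LB_pos, and Prosbeta6 (0.18), Rpn13 (0.10) and Rpn8 (0.051) against the larval mean were above 0. Without array a and after quantile normalization, Prosalpha2 (0.039) and Prosbeta6 (0.20) against LB_neg, Rpn13 (0.24) and Rpn6 (-0.11) against LB_pos, and Rpn13 (0.071) and Rpn8 (0.036) against the larval mean changed sign. For LB_pos minus LB_neg, Prosalpha7 moved from -0.72 to -0.11 with the mean over its probe sets, the second of which is dim. The cause was not tested.

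Among all tested probe sets, 52 passed against LB_neg, 3 against LB_pos and 318 against the larval mean. These became 161, 12 and 359 with the offset at the 10th percentile and 7, 0 and 210 at the 50th. A mean over probe sets gave 84 against LB_neg, and no filter gave 6 and quantile normalization 7 against LB_pos. Without array a they were 2231, 1359 and 2767, without b or c 0 in each comparison, and without d 0, 0 and 44. Each larval fraction was 1 array, so its own spread is unknown, and dim variant copies lay too near the background to be compared. No paired analysis was possible because the groups share fewer than 2 replicate letters.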
